A study of Mus musculus with 18 samples.

Results

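Heavy polysomes of brain slices whose translation initiation had been blocked with homoharringtonine (HHT) were compared with the lysate they came from. The 8 libraries were chosen by their labels alone, as the heavy and the input library of each of 4 HHT lysates, out of 18 libraries in the series. The mice were male C57BL/6N at postnatal day 28 to 35, either wild type (WT) or Fmr1 knockout (KO), and the knockout is present in every cell of the KO mice. Transverse slices 400 µm thick, named hippocampal in one label and hippocampal and cortical in others, were held for 30 min in 20 µM HHT or in DMSO vehicle, and 10 slices from 2 or 3 mice were pooled for each lysate. There were 2 WT and 2 KO lysates with HHT, and 1 WT and 1 KO lysate with vehicle. A lysate gave an input library and, after a sucrose gradient, a medium and a heavy polysome library, and the submitters placed the medium and heavy pools by where FMRP, the protein made from Fmr1, ran in the gradient. In the values below the 4 HHT lysates are always given in the order WT 1, WT 2, KO 1 and KO 2.

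Polysomes are mRNAs loaded with several ribosomes, and the more ribosomes an mRNA carries the deeper it sediments. HHT keeps a newly joined ribosome from taking its first elongation steps, so that ribosomes further along the coding sequence finish and leave while no new ones follow. An mRNA that keeps a place in heavy polysomes after this treatment still holds elongating or stalled ribosomes, or sediments deeply for another reason. FMRP is an RNA-binding protein that associates with polysomes in neurons, has been described as stalling ribosomes, and is lost in fragile X syndrome. The comparison asks which mRNAs are found in heavy polysomes, relative to the lysate, once initiation is blocked.

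Estimated counts totalled 6298975 to 13834652 in the 4 HHT input libraries and 7461866 to 11008211 in the 4 HHT heavy libraries. Values are CPM, counts of a gene relative to the TMM-scaled library total, and because every library was made from 200 ng of RNA they are shares of the RNA of a fraction and not amounts per cell. Brain cell markers were present in the HHT input, among them Slc1a2 of astrocytes (855 to 1528 CPM), Cnp of myelin (451 to 525 CPM) and the cortical neuron gene Cux2 (71.2 to 90.9 CPM). The blood gene Hba-a2 was higher in KO, at 1.27 and 1.17 CPM in WT and 5.96 and 15.7 CPM in KO input. In WT and KO vehicle input it held 1.92 and 7.87 CPM. For such levels in bulk tissue, fewer cells of a type and less RNA per cell cannot be told apart, whereas a heavy to input ratio sets 2 parts of the same lysate against each other. Fmr1 stood at 22.4 and 32.2 CPM in WT input and at 8.53 and 5.07 CPM in KO input. The spread of heavy to input ratios over genes was wider in the lysates numbered 2 of both genotypes: the SD of the log2 ratio was 0.586, 0.875, 0.554 and 0.823. The deposited tables are named for 2 batches, but which libraries form a batch is not stated, so that a batch and these lysate numbers cannot be told apart.

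After HHT, heavy polysomes were rich in mRNAs that encode very large proteins and poor in mRNAs that encode small ones. The largest rises were those of very long ubiquitin ligases, the dynein heavy chain, a presynaptic scaffold, an NMDA receptor subunit and large adhesion proteins, each over 4 times its share in input. The largest falls were those of ribosomal proteins, chemokines, the growth factor Igf2 and short noncoding RNAs, from -3.05 to -1.89 on the log2 scale. These 15 genes were low in heavy polysomes without the drug too, with log2 ratios from -3.54 to -1.19 in vehicle. In HHT minus vehicle, described below, 1 of the 15 was called. Of 13951 genes tested with edgeR, 3821 rose (27.4% of all tested) and 4186 fell (30%), 57.4% in all, at an adjusted p under 0.05. By total counts in place of TMM scaling 2400 rose and 6047 fell, which puts the share of calls that rose at 28.4% against 47.7%, and the median of all genes at -0.28 against -0.04 on the log2 scale. The lysates numbered 1 alone gave 3688 rises and 3664 falls, and those numbered 2 alone gave 3557 and 3891. Heavy libraries lay all above input libraries for 3599 genes (25.8%) and all below for 3697 (26.5%). The p-values rest on the spread between 4 pooled lysates together with spread shared over genes. In this fit 3 degrees of freedom came from the lysates and 11.9 from the shared spread.

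Dync1h1, the motor subunit of cytoplasmic dynein (chromosome 12, 110601452 to 110666945, mm10), stood at 991, 557, 964 and 701 CPM in input and at 3800, 3601, 3271 and 3724 CPM in heavy polysomes. All 4 heavy libraries were far above all input libraries, a log2 change of 2.20 ± 0.15 (SE; adjusted p = 1.18e-07, edgeR quasi-likelihood test). Genes with the largest rises and falls were picked for large changes of the same sign in all HHT lysates. Such separation of libraries therefore adds no support for them, here and below. Grin2b, the GluN2B subunit of the NMDA receptor (chromosome 6, 135713233 to 136173511), had the largest rise. It held 29, 10.5, 38 and 12.1 CPM in input and 105, 85.9, 126 and 134 CPM in heavy, a 5.51-fold rise (log2 2.46 ± 0.23, adjusted p = 9.52e-07). Its input libraries differed more among themselves than its heavy libraries did, with both lysates numbered 2 low in input.

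Several of the largest rises were ubiquitin ligases, enzymes that mark proteins for degradation. Birc6, which also blocks apoptosis (chromosome 17, 74528295 to 74703356), held 84.7, 70, 106 and 60.4 CPM in input and 367, 381, 353 and 364 CPM in heavy (log2 2.22 ± 0.14, adjusted p = 8.55e-08). Herc2 (chromosome 7, 56050196 to 56231800) went from 251, 170, 253 and 183 CPM to 994, 910, 963 and 1040 CPM (log2 2.21 ± 0.13, adjusted p = 8.55e-08). For both genes the groups did not overlap, and the 4 heavy values lay close together. Mycbp2 (log2 2.27 ± 0.14), Herc1 (2.20 ± 0.13) and Huwe1 (2.06 ± 0.13) rose by like amounts.

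The other leading rises were genes of neuronal structure and of chromatin. Pclo, whose product piccolo organises the presynaptic active zone, held 181, 153, 226 and 132 CPM in input and 716, 817, 775 and 751 CPM in heavy (log2 2.17 ± 0.13, adjusted p = 8.55e-08). Reln, the secreted guidance protein reelin (chromosome 5, 21884454 to 22344702), held 48.1, 21.9, 39 and 26.1 CPM in input against 154, 132, 127 and 152 CPM in heavy. Trrap, a scaffold of histone acetyltransferase complexes, rose by 2.21 ± 0.14 and Dst, a linker of the cytoskeleton, by 2.11 ± 0.12. Adhesion genes were Sdk2 (2.13 ± 0.14), Celsr2 (2.10 ± 0.16) and Tenm1 (2.10 ± 0.22), and Fry, a scaffold of cell shape, stood at 2.11 ± 0.15. The proteins of the 15 leading rises ran from 1482 to 7717 residues by GENCODE's longest complete coding sequence, and the largest adjusted p among them was 2.2e-06.

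**Figure D1:**
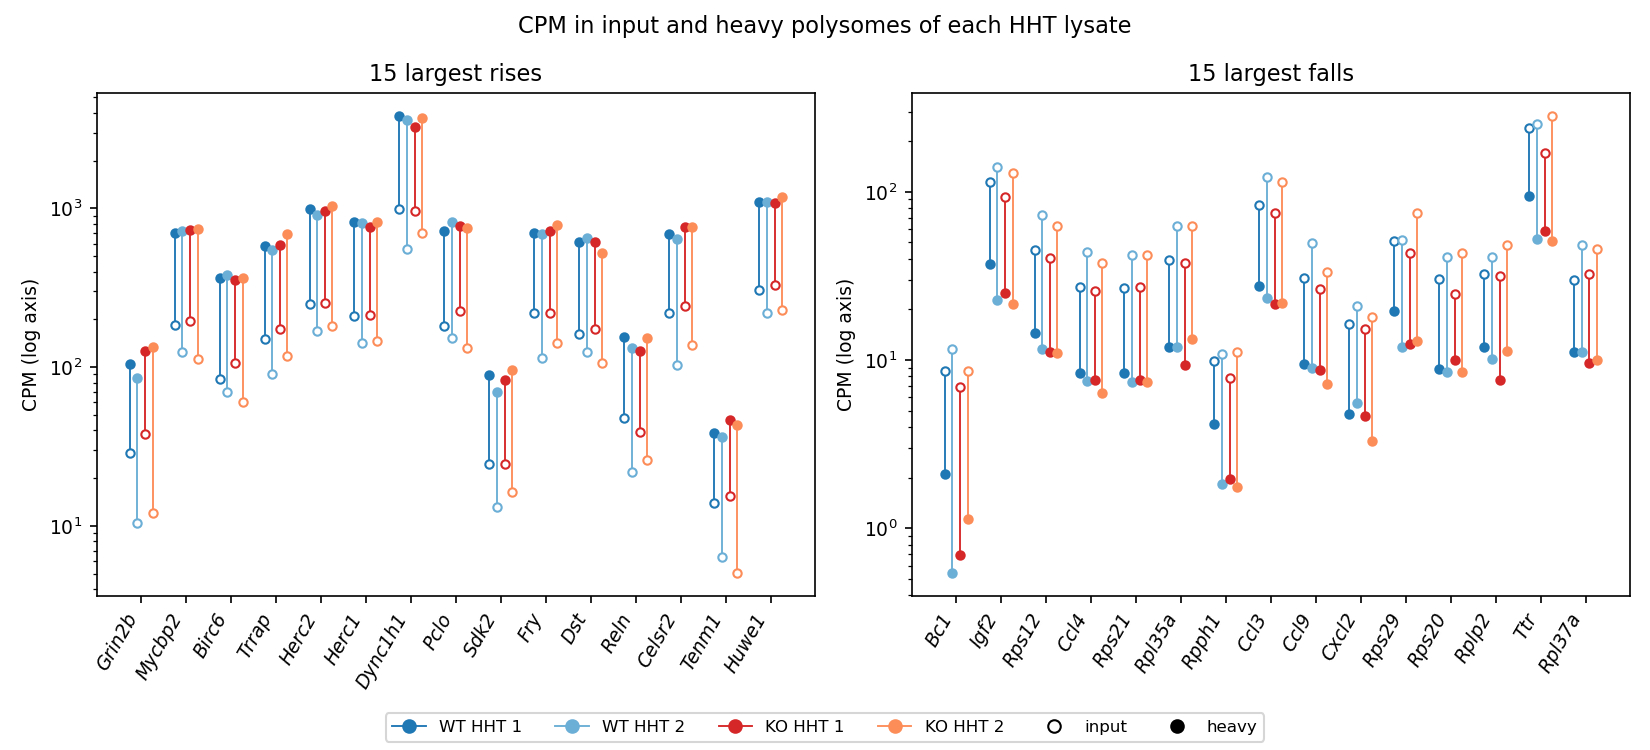
CPM (log axis) of the 15 genes with the largest rise (left) and the 15 with the largest fall (right) in heavy polysomes against input under HHT. Open circles are input, filled circles heavy, and a line joins the 2 libraries of each of the 4 lysates. For Dync1h1 the heavy values of 3271 to 3800 CPM lie above inputs of 557 to 991 CPM, and for Rps12 the heavy values of 11 to 14.4 CPM lie below inputs of 40.2 to 72.6 CPM.

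Ribosomal protein mRNAs fell without exception. All 79 genes of cytosolic ribosomal proteins that were tested fell, from -2.17 to -0.47 with a median of -1.56 on the log2 scale, where 30% of all genes fell and the median was -0.04. Rps12, a protein of the small subunit (chromosome 10, 23785183 to 23787275), held 44.9, 72.6, 40.2 and 62.2 CPM in input and 14.4, 11.6, 11.2 and 11 CPM in heavy, 4.48-fold lower (log2 -2.16 ± 0.17, adjusted p = 2.6e-07). Rpl35a (chromosome 16, 33056453 to 33060189) went from 39.3, 62.6, 37.6 and 62.6 CPM to 12, 12, 9.38 and 13.4 CPM (log2 -2.09 ± 0.14, adjusted p = 1.28e-07). Heavy and input libraries did not overlap for either gene. Ribosomal protein genes have many pseudogene copies, so the estimated counts could be split among copies, and the value of a single gene is less certain than that of the list.

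Ribosomal protein mRNAs are known for a 5′ terminal oligopyrimidine tract, a C at the first base followed by a run of pyrimidines, through which growth signals control their initiation. The first bases of 5 ribosomal protein mRNAs that fell and that carry such a tract at their RefSeq start are shown beside those of 3 of the largest rises, to let the starts be compared. Each line gives 15 bases before the annotated start and the first 15 bases of the transcript, 5′ to 3′ on GRCm38.p6, with the tract in capitals.
Rps21, chr2:180257364-180257393, plus strand: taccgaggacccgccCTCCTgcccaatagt
Rpl35a, chr16:33056467-33056496, plus strand: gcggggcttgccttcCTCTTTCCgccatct
Rplp2, chr7:141447636-141447665, plus strand: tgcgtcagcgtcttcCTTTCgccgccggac
Rps27, chr3:90213634-90213663, minus strand: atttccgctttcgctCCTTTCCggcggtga
Rpl14, chr9:120571502-120571531, plus strand: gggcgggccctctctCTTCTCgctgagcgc
Birc6, chr17:74528280-74528309, plus strand: gatcggcactcccgcgcatgctccaccccc
Trrap, chr5:144768779-144768808, plus strand: gcgtcgtgggcggggcggacccgatggagg
Herc2, chr7:56050140-56050169, plus strand: cgcagccatgcgtcagcgtgcgcttcgggc

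A tract of a C and at least 4 pyrimidines after it was read at the exact annotated start and on the transcript strand only. A gene counted if any of its RefSeq starts carried the tract, so genes with more starts had more chances. The tract was present in 14 of 58 ribosomal protein genes that had a RefSeq start (24.1%) and in 317 of 10515 genes tested (3.01%). The 14 had a median log2 ratio of -1.68 and the other 44 one of -1.53. Among the remaining genes the median was -0.03 for 303 with the tract and -0.04 for 10154 without it. An annotated start can miss the true first base by a few positions, so a missing match says nothing of the transcript.

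Other groups of small proteins fell with those of the ribosome. The list counts here and in the paragraphs below stand against 27.4% of all genes that rose and 30% that fell. Of 77 nuclear-encoded respiratory chain genes 76 fell (median -1.31), and Cox6a1, a subunit of cytochrome c oxidase, went from 142, 192, 140 and 228 CPM in input to 53.5, 54.7, 55.6 and 52.3 CPM in heavy (log2 -1.67 ± 0.13, adjusted p = 3.15e-07). Of 77 mitochondrial ribosomal protein genes 74 fell (median -0.88), led by Mrpl32 (-1.75 ± 0.17), and 0 rose in either list. Small GTPases, switches of membrane traffic and the cytoskeleton, fell in 31 of 49 cases (median -0.64), and 2 rose by little, Rab6b (0.34 ± 0.10) and Rhob (0.26 ± 0.10). Of 19 selenoproteins 14 fell (median -0.99), including the glutathione peroxidases Gpx4 (-1.59 ± 0.13) and Gpx1 (-1.44 ± 0.14), and Sepn1 rose (0.50 ± 0.13). Neuropeptide precursors fell in 20 of 27 cases (median -0.66), such as Sst (-1.52 ± 0.14) and Npy (-1.51 ± 0.14), while Pcsk2, Nptx1 and Pam rose (0.65, 0.43 and 0.35).

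Genes that make, fold and degrade proteins fell in many cases too, where 30% of all genes fell. Translation factors fell in 30 of 47 cases (median -0.54), for example Eif3e (-1.36 ± 0.13), whereas the long cap-binding scaffolds Eif4g3 (1.28 ± 0.12) and Eif4g1 (1.16 ± 0.12) rose together with Eif3b (0.29 ± 0.10). Proteasome subunits fell in 27 of 32 cases (median -0.76) and Psmd2, a subunit of 908 residues, rose (0.39 ± 0.10). Chaperones fell in 19 of 31 cases (median -0.50), with Hspa4l, Dnajc5 and Dnajb2 rising by 0.43, 0.38 and 0.35. Genes of translocation and folding in the endoplasmic reticulum fell in 31 of 49 cases and rose in 7 (median -0.61), led by the signal recognition particle gene Srp14 (-1.43 ± 0.16). Glycolytic enzymes stood near the middle (median -0.21, 8 of 16 fell), with Aldoc at -0.97 ± 0.14, and Hk1, the longest of those named, at 0.71 ± 0.11, while Eno2 rose by 0.26 ± 0.10.

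Large proteins of the neuronal surface rose as groups, where 27.4% of all genes rose. Of 49 axon guidance ligands and receptors 43 rose and 0 fell (median 1.03), and Plxna4, a semaphorin receptor, went from 160, 88.7, 188 and 88.2 CPM in input to 447, 450, 486 and 472 CPM in heavy (3.73-fold, adjusted p = 5.38e-07). Of 63 cell adhesion molecules 52 rose (median 0.96), led by Celsr2 and Tenm4 (1.89 ± 0.17), and 3 fell by small amounts, Cadm1 (-0.37 ± 0.12), Lrrtm4 (-0.34 ± 0.13) and Cadm4 (-0.32 ± 0.11). Extracellular matrix genes were split, with 20 of 39 rising, such as Agrn (1.47 ± 0.14), and 8 falling, such as Sparc (-1.58 ± 0.12) and Vtn (-1.55 ± 0.18).

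Ion channels and receptors followed the same direction, apart from 1 family, where 27.4% of all genes rose and 30% fell. Of 27 voltage-gated sodium and calcium channel genes 21 rose (median 0.87), and Cacna1c, an L-type calcium channel, held 121, 69.9, 122 and 69.6 CPM in input against 331, 316, 329 and 360 CPM in heavy (log2 1.85 ± 0.15, adjusted p = 3.79e-07). The auxiliary subunit Cacng3 fell (-0.30 ± 0.11). Potassium channels rose in 27 of 37 cases (median 0.83), led by Kcnc1 (1.59 ± 0.12), and the short auxiliary subunit Kcnmb4 fell (-0.55 ± 0.12). Glutamate receptors rose in 20 of 24 cases and 0 fell (median 0.89), with Grik3 at 1.67 ± 0.15 and Grm2 at 1.28 ± 0.13 after Grin2b. GABA and glycine receptors, in contrast, fell in 9 of 17 cases (median -0.36): Gabra4 stood at -0.84 ± 0.13, Gabra3 at -0.76 ± 0.11 and Gabra5 at -0.74 ± 0.12. The list median differed between lysates, at -0.44, -0.78, -0.27 and -0.05, and was -0.52 and -0.75 in WT and KO vehicle. The 3 that rose were Gabbr2 (1.49 ± 0.16) and Gabbr1 (0.41 ± 0.10) of the larger GABA-B receptor, and Gabrb1 (0.48 ± 0.17).

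Synaptic scaffolds rose more often than vesicle proteins, where 27.4% of all genes rose and 30% fell. Of 39 postsynaptic density genes 30 rose (median 0.65), including Sipa1l3 (1.36 ± 0.12), Shank3 (1.29 ± 0.11) and Shank1 (1.14 ± 0.10), and Ppp3cb (-0.81 ± 0.12), Nrgn (-0.55 ± 0.12), Prkar1b (-0.34 ± 0.11) and Dlg1 (-0.33 ± 0.10) fell. Of 42 presynaptic genes 20 rose and 9 fell, and their median of 0.22 became -0.02 by total counts. Bsn, the active zone scaffold bassoon, and Unc13a, which primes vesicles, stood at 1.98 ± 0.13 and 1.50 ± 0.12. Whether the 2 lists differ in these counts was not tested.

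Cytoskeletal genes divided by size, where 27.4% of all genes rose and 30% fell. Of 25 spectrins, ankyrins, plakins and other giant linkers 23 rose and 0 fell (median 1.40), and Macf1, which ties microtubules to actin, held 113, 90.3, 120 and 72.9 CPM in input against 395, 410, 390 and 341 CPM in heavy (log2 1.98 ± 0.12, adjusted p = 8.55e-08). Of 25 tubulins, actins and their small partners 15 fell and 0 rose (median -0.45), such as the actin binder Pfn1 (-1.25 ± 0.14) and Tuba1c (-1.43 ± 0.17), a tubulin gene whose paralogs are close in sequence. Motors held both kinds: Dync1h1 and Kif1a (1.57 ± 0.13) rose, and the light chain Dynlrb1 fell (-1.35 ± 0.13).

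Nuclear regulators were largely up and splicing factors more often down, where 27.4% of all genes rose and 30% fell. Of 93 chromatin modifiers 77 rose (median 0.73), and the histone methyltransferase gene Kmt2d went from 117, 78, 128 and 95.1 CPM to 429, 389, 392 and 413 CPM (log2 1.98 ± 0.12, adjusted p = 8.55e-08). Setd2, the methyltransferase for histone H3 lysine 36, held 50.6, 50.9, 60.3 and 43.1 CPM in input and 85.8, 111, 94 and 113 CPM in heavy (log2 0.98 ± 0.13, adjusted p = 1.76e-05). The 4 chromatin genes that fell were Hdac1 (-0.67 ± 0.16), Hdac2 (-0.61 ± 0.11), Suv39h1 (-0.35 ± 0.12) and Setd8 (-0.32 ± 0.11), whose proteins are all under 500 residues. Of 68 splicing factors 38 fell and 17 rose (median -0.39), and the rises were near the share of all genes. Those that rose most were the large Prpf8 (1.86 ± 0.16) and Srrm2 (1.78 ± 0.14). Histone genes fell in 12 of 15 cases and 0 rose (median -0.72).

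Of 71 mRNAs listed as targets of FMRP in brain from earlier crosslinking work, 64 rose, with a median of 1.41, and Aldoa alone fell (-0.33 ± 0.11). Their proteins have a median of 1828 residues, against 480 for all genes with a coding sequence. Set against the median of genes in the same class of protein length, the members had a median difference of 0.60. The members of a list of 56 autism risk genes rose in 48 cases (median 0.94), and they stood 0.33 above their length class. Length classes take no account of abundance. Among proteins over 1600 residues the median was 0.21 under 10 CPM and 1.41 over 100 CPM. The part of abundance in the difference of any list from its length class was not tested. Many of these genes stand in more than 1 list, as Shank3 does in the FMRP-bound, autism and postsynaptic lists, and all lists were chosen with earlier results of these data known.

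Fmr1 itself fell, from 22.4, 32.2, 8.53 and 5.07 CPM in input to 13.9, 18.4, 6.6 and 4.62 CPM in heavy (log2 -0.55 ± 0.16, adjusted p = 0.00807). In both genotypes the heavy value was below the input value of the same lysate, but the call was lost in 6 of the other ways of testing, among them without WT HHT replicate 2 (-0.44). Its paralog Fxr1 also fell (-0.49 ± 0.12), and the call was lost in the KO lysates alone (-0.46) and in the lysates numbered 2 alone (-0.35). Fxr2 rose (0.46 ± 0.10), which was lost by total counts (0.22) and in the KO lysates alone (0.40). The FMRP partners Cyfip1 (0.71 ± 0.12) and Cyfip2 (0.99 ± 0.11) rose, and Nufip1 fell (-0.83 ± 0.14).

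Immediate early genes, which neurons switch on after activity, stood high for the size of their proteins. Of 34 measured 16 rose and 9 fell (median 0.27), although their median protein is 375 residues, and they stood 0.40 above their length class. Without the drug they stood higher still, with list medians of 0.89 and 0.71 in WT and KO vehicle. In HHT minus vehicle, described below, 13 lost (17.3% of all genes did) and 4 gained (15.7% of all genes did). Jun, a subunit of the AP-1 transcription factor with 334 residues, held 236, 203, 223 and 201 CPM in input and 687, 654, 615 and 608 CPM in heavy (log2 1.57 ± 0.10, adjusted p = 1.13e-07). Fosl2 (1.28 ± 0.10), Fosb (1.04 ± 0.10) and Nr4a3 (1.04 ± 0.13) rose as well. Genes of the integrated stress response, among which upstream open reading frames are common, were mixed, with 7 of 24 rising and 11 falling, and Atf4 at -0.58 ± 0.11.

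Cell type markers differed from one another, where 27.4% of all genes rose and 30% fell. Microglia markers fell in 18 of 19 cases and 0 rose (median -1.33), and they stood 1.21 below their length class, the lowest of the lists apart from the blood cell markers with 2 members. C1qb, part of the first complement component, held 27.8, 28, 27.9 and 35.6 CPM in input and 12.3, 6.94, 5.9 and 8.43 CPM in heavy (log2 -1.87 ± 0.17, adjusted p = 8.94e-07). Inflammatory cytokines and chemokines, of which many are made by microglia, fell in 21 of 23 cases (median -1.31). Ccl3 held 83.6, 123, 74.6 and 114 CPM in input and 27.7, 23.5, 21.6 and 21.7 CPM in heavy (log2 -2.05 ± 0.15, adjusted p = 2.02e-07).

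Astrocyte markers fell in 11 of 18 cases (median -0.62), such as Clu (-0.99 ± 0.13) and Apoe (-0.93 ± 0.13), while the longer transporter genes Slc1a2 (1.05 ± 0.14) and Slc4a4 (0.92 ± 0.14) rose with Fgfr3 (0.64 ± 0.11) and Atp1b2 (0.36 ± 0.10). Vessel markers fell in 13 of 22 cases (median -0.65), with Cldn5 at -1.42 ± 0.21, and Pdgfrb rose (0.63 ± 0.16). Myelin genes lay near 0 (median -0.14, 9 of 20 fell, and Cnp rose by 0.58 ± 0.10). Excitatory neuron markers had a median of 0.11 that became -0.13 by total counts, with Bcl11b at 1.52 ± 0.10 and the short Nrn1 at -1.09 ± 0.13. Inhibitory neuron markers had a median of -0.16, and 0.02 in the lysates numbered 1 alone. Of 10 choroid plexus and ependyma markers 2 rose, Kl (0.52 ± 0.14) and Foxj1 (0.51 ± 0.15), and Ttr, Kcnj13 (-1.10 ± 0.26), Folr1 (adjusted p = 0.00435, edgeR) and Aqp1 (-0.67 ± 0.22) fell. The list median of -0.61 became 0.22 once genes under a mean of 5 CPM were left out, and the call of Kl was lost by total counts (0.28). Ttr, the thyroxine carrier transthyretin, was among the largest falls (240, 254, 170 and 281 CPM in input against 94.7, 52.7, 58.2 and 51.3 CPM in heavy).

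**Figure D2:**
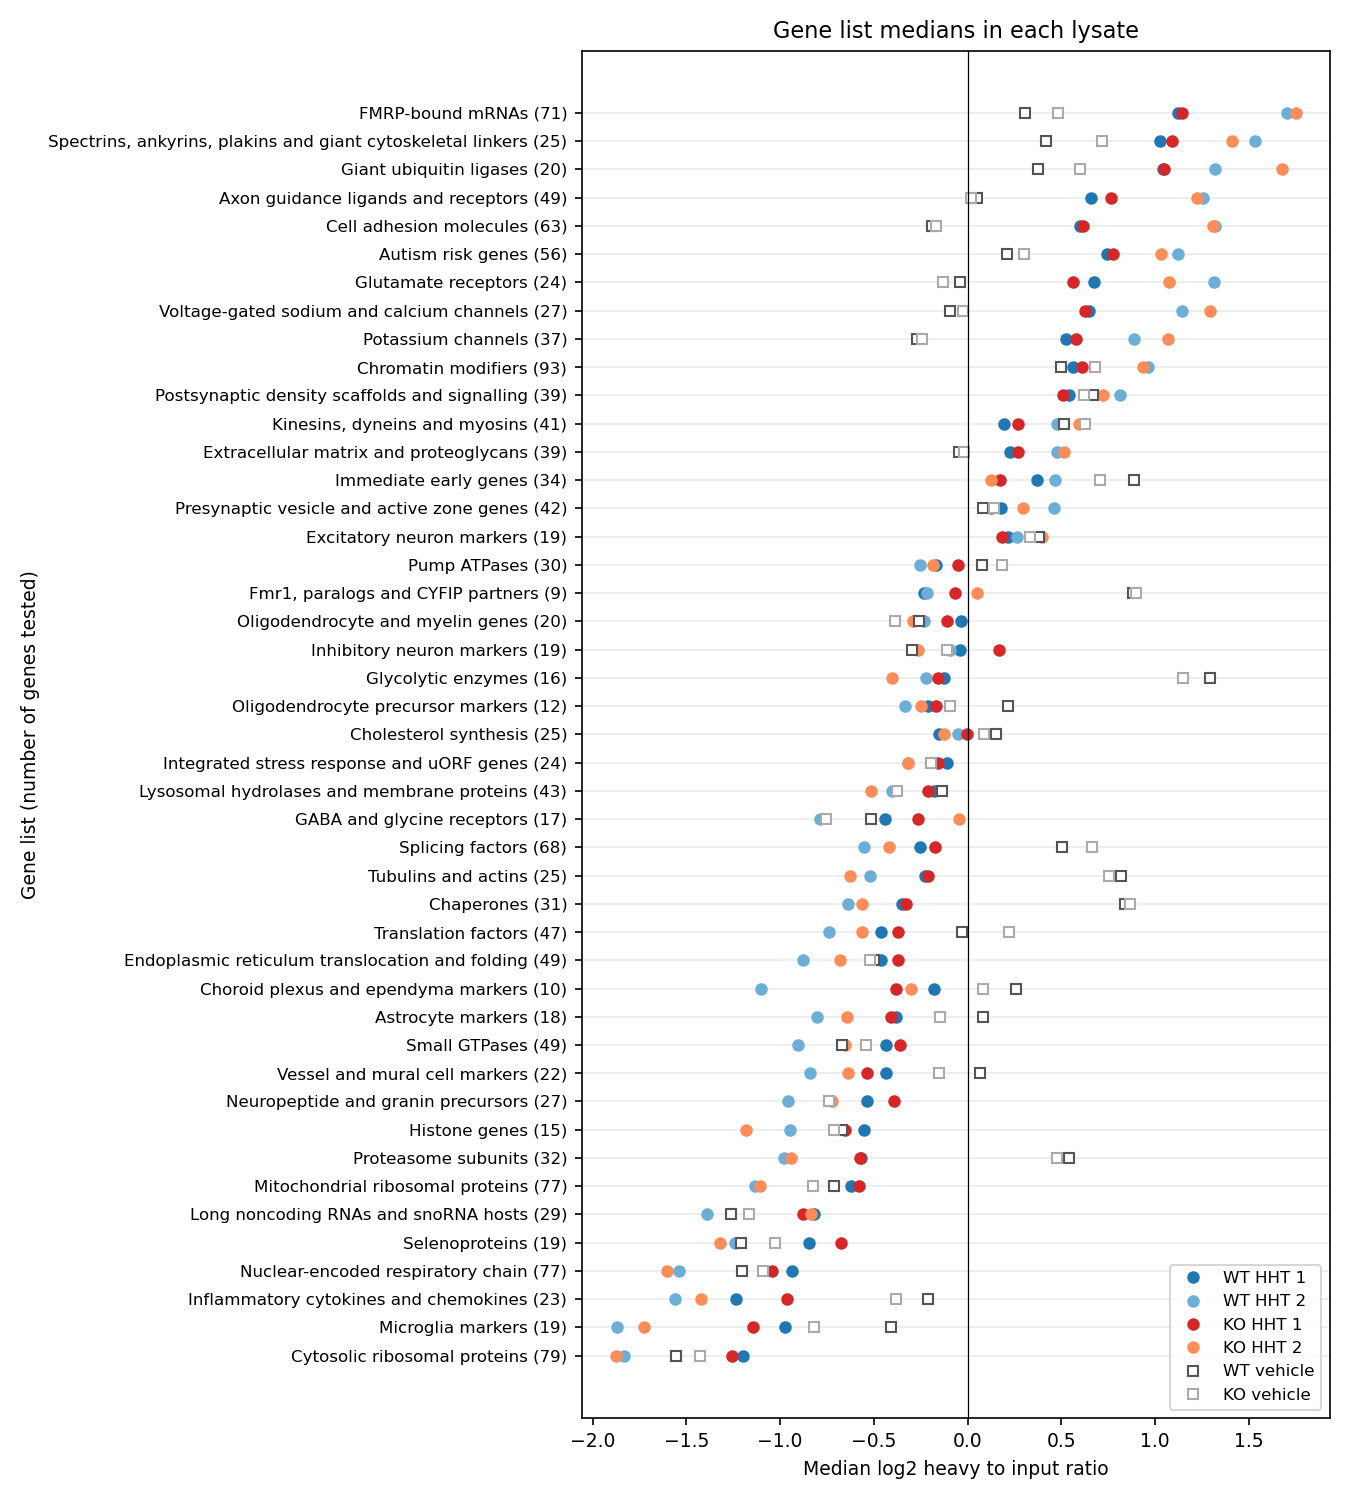
Median log2 heavy to input ratio of each gene list with at least 9 genes tested, by lysate: filled circles are the 4 HHT lysates, open squares the 2 vehicle lysates, and the number of genes tested stands in brackets. FMRP-bound mRNAs (median 1.41 in the fit) lie at the top and cytosolic ribosomal proteins (-1.56) at the bottom, and vehicle medians of proteasome subunits and glycolytic enzymes lie on the other side of 0 from all 4 HHT lysates.

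Among RNAs without a coding sequence few rose. Of 286 noncoding genes 25 rose (8.74%, against 27.4% of all genes tested) and 84 fell (29.4%, against 30%), with a median of -0.23, and they were of low abundance, with a median of 3.05 CPM. Bc1, a short RNA of dendrites made by RNA polymerase III (chromosome 7, 144914470 to 144914637), held 8.6, 11.7, 6.94 and 8.61 CPM in input and 2.1, 0.543, 0.695 and 1.13 CPM in heavy, the largest fall of all named genes (log2 -3.05 ± 0.28, adjusted p = 8.8e-07). Rpph1, the RNA of ribonuclease P, stood at -2.08 ± 0.23 and the nuclear RNA Malat1 at -1.79 ± 0.17. Meg3, a long noncoding RNA, went from 165, 289, 180 and 160 CPM to 64.9, 74.9, 81.1 and 57.8 CPM. Peg13 rose, alone in its list of 29 (0.78 ± 0.10).

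The ratio climbed with the length of the encoded protein in every HHT lysate, and over most lengths in vehicle as well. Genes for proteins of up to 100 residues had a median log2 change of -1.01, and those of 101 to 200 residues one of -0.75. The medians were -0.36 at 201 to 400, 0.03 at 401 to 800, 0.46 at 801 to 1600, 0.98 at 1601 to 3200 and 1.24 over 3200 residues. Of 668 genes for proteins over 1600 residues 553 rose and 5 fell, and of 1569 genes for proteins up to 200 residues 51 rose. Across 13483 genes, which are not independent replicates, Spearman's rho of the ratio with protein length was 0.561, 0.611, 0.56 and 0.632 in the 4 HHT lysates, and 0.562 and 0.594 in WT and KO vehicle. With mRNA length rho was 0.519, 0.575, 0.58 and 0.671 after HHT, and 0.306 and 0.364 in vehicle. All these values share the depth of the libraries and the coding lengths of 1 annotation.

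**Figure D3:**
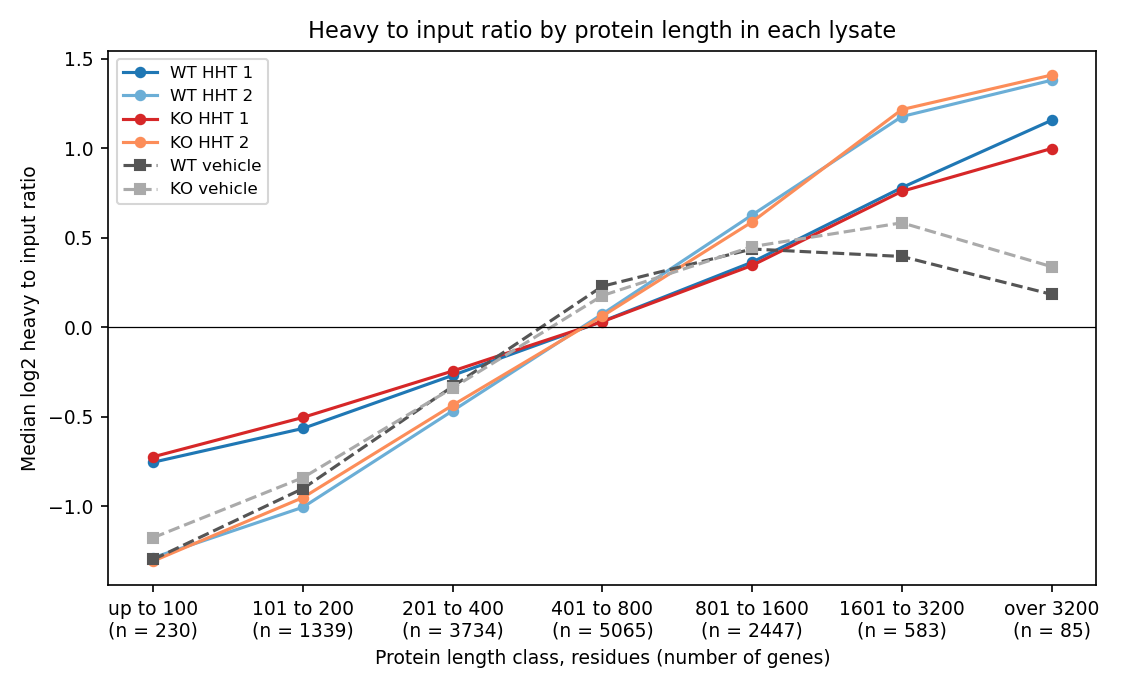
Median log2 heavy to input ratio of genes grouped by protein length (x axis, residues, with the number of genes), 1 line for each lysate, solid with circles for HHT and dashed with squares for vehicle. In the HHT lysates the medians climb over all classes, to 1.16, 1.38, 0.999 and 1.41 over 3200 residues, while in WT and KO vehicle they are 0.184 and 0.339 in that class.

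Among proteins over 1600 residues, 29.9% of 134 genes under 10 CPM rose, with a median of 0.21, and 99.1% of 235 genes over 100 CPM, with a median of 1.41. For proteins up to 200 residues the medians of the 4 abundance classes lay from -0.82 to -0.66. All 71 genes over 3200 residues that rose had between 2.29 and 2201 CPM, and the 14 that were not called had 4.51 to 13.8 CPM. Of these 14, 6 were axonemal dynein heavy chains, motors of cilia, out of 9 tested, and the highest of them stood at 0.32.

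A few genes, chosen after their values were seen, went against the length of their protein. Tmem178b, a membrane protein, is counted here by its longest complete coding sequence in the annotation, of 172 residues. It held 36.3, 20.9, 39.5 and 22.2 CPM in input and 82.1, 57.4, 106 and 108 CPM in heavy (log2 1.59 ± 0.16, adjusted p = 1.38e-06). The calcium sensor Ncs1, of 190 residues, rose by 0.81 ± 0.10 and the receptor modulator Lynx1, of 116 residues, by 0.64 ± 0.11. In the other direction the 5 genes for proteins over 1600 residues that fell were Rtl1 (-0.96 ± 0.20), Naca (-0.92 ± 0.11), Mylk (-0.52 ± 0.16), Myh7 (-0.52 ± 0.14) and Prune2 (-0.44 ± 0.10). Naca is counted here by its longest annotated protein of 2187 residues, and much shorter isoforms of it exist.

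Within a length class, other features of the mRNA moved with the ratio. Genes whose protein has a predicted hydrophobic segment, as in signal peptides and membrane spans, had a median of 0.10 and the others one of -0.10. In the class of 401 to 800 residues the medians were 0.11 and 0.00, and of 201 to 400 residues -0.28 and -0.40. Among proteins of 401 to 800 residues, the 25% of genes with the shortest 3′ UTR had a median of -0.13 (14.6% rose) and the 25% with the longest one of 0.21 (40.5% rose). The latter were also more abundant, with a median of 32.3 CPM against 15.7 CPM, and the part of abundance in this was not tested.

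HHT minus vehicle in the same ratio asks how the block changed the place of an mRNA in heavy polysomes, with 4 HHT lysates against 1 WT and 1 KO vehicle lysate. This comparison shares the HHT libraries with the one above. Large proteins of the neuronal surface gained, and glycolytic enzymes, chaperones and proteasome subunits lost. Of 13972 genes tested 2197 rose (15.7%) and 2424 fell (17.3%), 33.1% in all. Scaling by total counts gave 3033 rises and 1909 falls, a share of rises of 61.4% against 47.5%, and by limma on rescaled TPM there were 4450 rises and 1362 falls (76.6%). The median of all genes moved from 0.01 to 0.16 and 0.31 in these, so that list medians of that size have no fixed direction. The HHT lysates numbered 1 alone against vehicle gave 3288 rises and 3078 falls.

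Dync1h1 held 708 and 723 CPM in WT and KO vehicle input and 651 and 734 CPM in vehicle heavy, where the log2 ratio was -0.12 and 0.02. With the HHT lysates at 1.94, 2.69, 1.76 and 2.41 the change was 2.25 ± 0.22 (adjusted p = 2.34e-05). Tenm2, a teneurin adhesion protein, gained the most (2.40 ± 0.31, adjusted p = 8.5e-05): its ratio was -0.74 and -0.65 in vehicle and 1.24, 2.21, 1.18 and 2.26 after HHT. Xkr4 (2.35 ± 0.44), Grin2b (2.24 ± 0.43), Birc6 (2.24 ± 0.22) and the microtubule protein Map1b (2.16 ± 0.30) followed. For all 6 genes each HHT lysate lay above both vehicle lysates. They were named only if every HHT lysate lay above the vehicle mean, so this separation adds no support.

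Gapdh, a glycolytic enzyme of high abundance, is an example of the opposite. It held 3740 and 3811 CPM in vehicle input and 9154 and 8457 CPM in vehicle heavy, but 3522, 4488, 3540 and 5478 CPM in HHT input and 2723, 2689, 2503 and 2736 CPM in HHT heavy. The change was -1.87 ± 0.18 (adjusted p = 2.3e-05), with no overlap between the lysates. Tuba1c had the largest loss (-2.81 ± 0.28), with heavy levels of 46.3 and 35.6 CPM in vehicle and 8.69, 5.53, 7.06 and 7.5 CPM after HHT. It was followed by the cytokine Il1b (-2.63 ± 0.28), the interferon-induced Slfn2 (-2.53 ± 0.26), the annexin Anxa2 (-2.53 ± 0.29), the signalling adaptor Pik3ap1 (-2.50 ± 0.23) and the heme oxygenase Hmox1 (-2.42 ± 0.23).

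Lists differed in this respect. Glycolytic enzymes lost in 15 of 16 cases (median -1.35), chaperones in 26 of 31 (-1.26), proteasome subunits in 30 of 32 (-1.03), tubulins and actins in 20 of 25 (-0.94) and splicing factors in 41 of 68 (-0.75), where 17.3% of all genes lost. Cell adhesion molecules gained in 50 of 63 cases (median 1.05), potassium channels in 26 of 37 (1.04), sodium and calcium channels in 22 of 27 (1.04), glutamate receptors in 17 of 24 (0.99) and FMRP-bound mRNAs in 50 of 71 (0.93), where 15.7% of all genes gained. Cytosolic ribosomal proteins, which fell in heavy against input under HHT, lay at -1.56 and -1.43 in WT and KO vehicle too, and only 1 gained and 8 lost (median -0.12). Chromatin modifiers were already at 0.50 and 0.68 in vehicle, and 27 of 93 gained (median 0.16). GABA and glycine receptors, which often fell in heavy against input, gained in 7 of 17 cases and lost in 1 (median 0.64). Fmr1, paralogs and CYFIP partners lost in 6 of 9 cases and 0 gained, with Fxr1 at -0.93 ± 0.18 (adjusted p = 0.00135).

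Noncoding genes and proteins of up to 100 residues had median gains of 0.41 and 0.24, and Meg3 gained (1.00 ± 0.21, adjusted p = 0.00221). Cnp, an enzyme of myelin, went the other way (-0.83 ± 0.14, adjusted p = 0.000521). In vehicle the medians at 801 to 1600, 1601 to 3200 and over 3200 residues were 0.437, 0.396 and 0.184 in WT and 0.451, 0.584 and 0.339 in KO. The median gain after HHT was 0.92 for proteins over 3200 residues, 0.42 at 1601 to 3200 and -0.17 at 401 to 800. Genes with a hydrophobic segment had a median gain of 0.25 and the others -0.13. The median of all genes in HHT minus vehicle moved to 0.31 by limma on rescaled TPM. Median gains or losses up to that size therefore have no fixed direction.

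**Figure D4:**
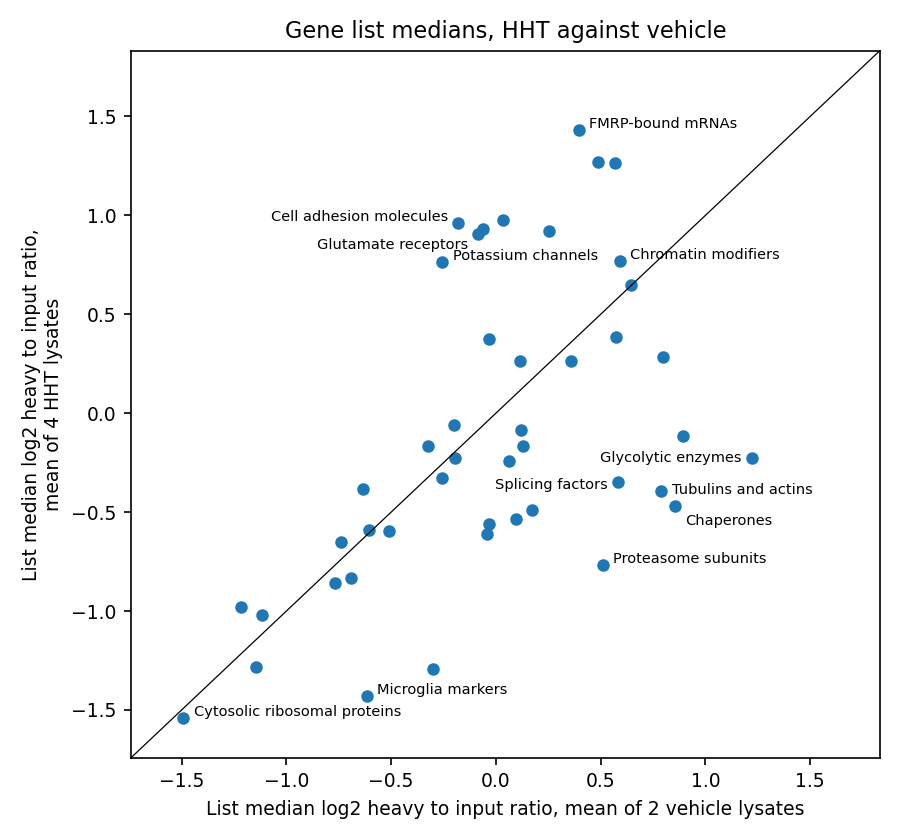
Median log2 heavy to input ratio of each gene list with at least 9 genes tested, as the mean of the 4 HHT lysates (y axis) against the mean of the 2 vehicle lysates (x axis), with the line of equality. Glycolytic enzymes, chaperones, tubulins and proteasome subunits lie far below the line, cell adhesion molecules, potassium channels and glutamate receptors above it, and cytosolic ribosomal proteins near it.

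Heavy against medium polysomes under HHT shows which mRNAs sit in the deepest part of the gradient. Of 13924 genes tested 3438 were higher in heavy (24.7%) and 3333 higher in medium (23.9%), 48.6% in all. By total counts these were 2172 and 5402, and the median of all genes moved from -0.02 to -0.20. Dync1h1 held 584, 296, 450 and 206 CPM in medium, so that its heavy level was higher by 3.33 ± 0.18 (adjusted p = 5.65e-09), the largest difference. Birc6 (3.25 ± 0.12), Ubr4 (3.22 ± 0.12), Herc1 (3.13 ± 0.14), Pclo (3.01 ± 0.15) and Herc2 (2.95 ± 0.14) came next, so that these mRNAs were lower in medium than in input and higher in heavy. The medium libraries of Birc6, at 53.6, 37.3, 40.4 and 26.5 CPM, all lay below the input libraries of the same lysates.

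Genes of small proteins led those that were higher in medium polysomes. Ptms, the small acidic protein parathymosin, held 934, 1123, 1014 and 1159 CPM in medium and 388, 317, 432 and 344 CPM in heavy (log2 -1.52 ± 0.10, adjusted p = 1.87e-08). Bex4 (-1.64 ± 0.15), the chemokine Cxcl16 (-1.40 ± 0.15), Chchd7 (-1.36 ± 0.17), Slc25a18 (-1.34 ± 0.10) and BC031181 (-1.34 ± 0.10) followed. Small GTPases were higher in medium in 41 of 49 cases (median -0.53), where 23.9% of all genes were. Ribosomal protein mRNAs were higher in medium in 38 of 79 cases and higher in heavy in 0 (median -0.22). Bc1 was low in both pools, at 0.272 to 0.621 CPM in medium.

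The test of KO minus WT in the heavy to input ratio under HHT asks whether FMRP changes which mRNAs keep heavy polysomes. With edgeR 0 of 13951 genes passed (0%), and 330 had an unadjusted p under 0.05 (2.37%). DESeq2 called 0 as well, with 51 at an unadjusted p under 0.05. A fit that also paired WT and KO lysates by number called 381. The labels do not state that pairing, and that fit has 1 residual degree of freedom, as described at the end. The median SE over genes was 0.29 on the log2 scale with 2 lysates a genotype and 2 residual degrees of freedom. Differences of that size were not detectable, and far larger ones could be missed too. Lrch4, described below, did not pass at 3.06 ± 0.43. An absence of calls is therefore no evidence of equal ratios. FMRP-bound mRNAs differed by a median of -0.07, chromatin modifiers by 0.01 and all genes by 0.00. Setd2 differed by 0.07 ± 0.28, Fxr1 by 0.05 ± 0.25, Fxr2 by -0.12 ± 0.20 and Fmr1 by 0.49 ± 0.30 (adjusted p = 1 for each). Dync1h1 (-0.23 ± 0.30) and Grin2b (0.19 ± 0.53) did not pass either. The WT lysates alone called 2829 rises and 3121 falls in heavy against input, and the KO lysates alone 2481 and 2537.

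Lrch4, a leucine-rich repeat protein (chromosome 5, 137629121 to 137641099), stood apart from the rest and was chosen after its values were seen. It held 4.86 and 5.54 CPM in WT input against 1.95 and 1.3 CPM in WT heavy, and 1.58 and 2.15 CPM in KO input against 4.98 and 4.73 CPM in KO heavy. The heavy to input ratio was -1.32 and -2.09 in WT and 1.65 and 1.13 in KO, a difference of 3.06 ± 0.43 that did not pass in edgeR (adjusted p = 0.509), and passed in limma on rescaled TPM (2.46, adjusted p = 0.00526). The vehicle lysates, which this comparison did not use, showed -1.24 in WT and 1.96 in KO. In medium polysomes its level was alike in the genotypes, at 5.48 and 3.7 CPM in WT and 5.12 and 5.53 CPM in KO.

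**Figure D5:**
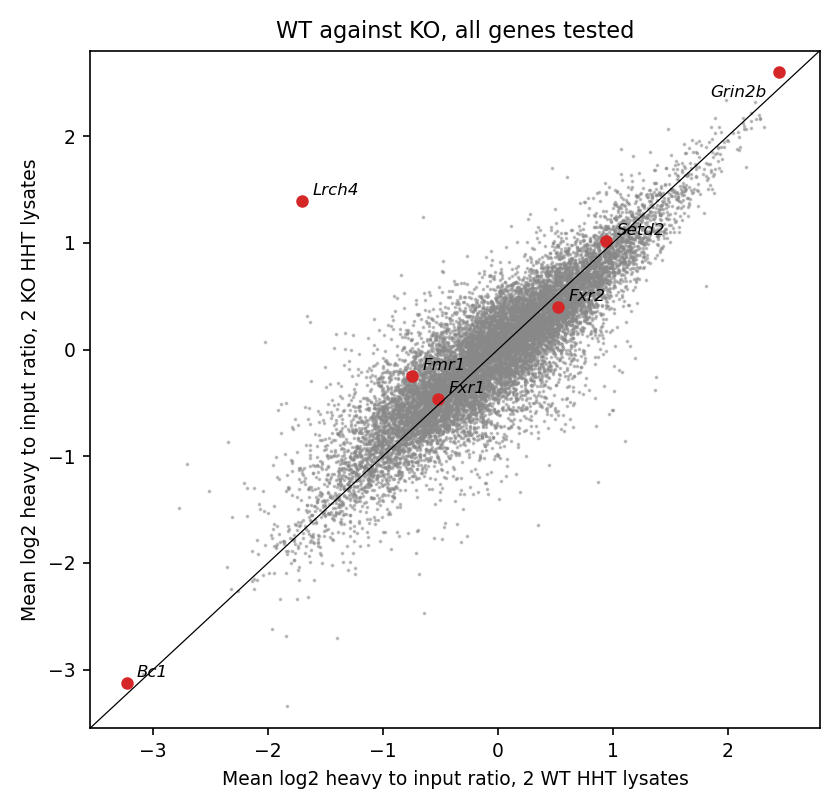
Mean log2 heavy to input ratio of the 2 KO HHT lysates (y axis) against that of the 2 WT HHT lysates (x axis) for 13951 genes (grey), with the line of equality and named genes in red. The named genes lie near the line except Lrch4, which is low in WT and high in KO.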

How the data were processed

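RNA of lysate (input) and of medium and heavy polysome pools was sequenced in 18 libraries. Per the labels' protocols, slices were broken up free of detergent, spun at 2000 g and then 10000 g, brought to 1% NP-40 and layered on 15 to 45% sucrose. Trimmomatic (0.32), Bowtie2 (2.1.0), RSEM (1.2.11), DESeq2 (1.16.1) and mm10 stand in the submitters' processing notes. The authors deposited estimated counts for 13973 genes and a second table of a score that they call TPM, whose columns do not sum to a common total here named rescaled TPM. No source used here says how the genes were picked or if batches were corrected, which would understate replicate spread.

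The estimated counts, made whole by rounding, went into edgeR 4.0.16 under R 4.3.3 (TMM over all 18 libraries, filterByExpr, quasi-likelihood F-test, 2-sided, Benjamini-Hochberg at 0.05 within each of 4 comparisons) with a block for the lysate. Input and heavy libraries of 1 lysate share a homogenate, so the pairing comes from the labels' protocols; deviations between replicates correlated at 0.0405 in WT and 0.0462 in KO between heavy and input, over genes. Log2 ratios of a lysate come from scaled counts, and SEs are the log2 change divided by the root of F. In the main comparison the residual degrees of freedom were 3, with 11.9 from the prior. Scripts were tested on simulated data.

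Proteins are the longest complete coding sequence of a gene in GENCODE M21 (GRCm38, the assembly of mm10), where 13413 genes matched by symbol, 474 by synonym and 86 not, and 13501 of the 13973 had a coding sequence. A hydrophobic segment is a window of 19 residues with a mean Kyte-Doolittle value of at least 1.6. Starts are from RefSeq (GRCm38.p6). The 47 gene lists and all members were chosen with earlier results of these data known, and lists are described by counts and medians without a test. The 13 mitochondrially encoded mRNAs listed were not measured. Genes were named by a rule: called, over a mean of 5 CPM and of 1 sign in all HHT lysates, the 15 largest rises and 15 falls of the main comparison and 6 and 6 of the others, up to 4 genes per list by adjusted p, Fmr1, Fxr1, Fxr2, Setd2, and the members behind list counts of 5 or fewer, without predicted genes. For KO minus WT both lysates of a genotype had to lie above both of the other. Alternatives were RLE factors, total counts, no filter, a mean of at least 5 CPM, DESeq2 1.42.0, limma 3.58.1 on log2(rescaled TPM + 1) and + 0.1, each lysate left out, other blocks, and subsets of lysates. Some genes are not reported here.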

Additional observations from a re-analysis of the deposited data

Results flagged for a closer look

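In each of the values named here 1 of the 4 HHT lysates lay far from the other 3 in its heavy to input ratio, by Dixon's criterion, which sets the gap to the nearest lysate against the whole range. Of 241 values examined 7 met it, and chance alone flags about 1 in 20 groups. The ribosomal protein gene Rplp2 stood at -1.44 in WT 1 against -2.03, -2.05 and -2.09 elsewhere. Fat3, an adhesion gene, stood at 1.20 in KO 1 against 1.54, 1.61 and 1.58, and Eif2ak4, a kinase of the stress response, at 0.58 in KO 1 against 1.20, 1.19 and 1.09. Bcl11b stood at 1.43 in WT 1 against 1.54, 1.56 and 1.54. Ly6c1, a vessel marker of low counts, stood at -2.75 in WT 2 against -1.61, -1.64 and -1.47. Ncs1 stood at 0.91 in WT 2 against 0.77, 0.76 and 0.78. The median of the list of long noncoding RNAs and snoRNA hosts was -1.39 in WT 2 against -0.82, -0.88 and -0.84.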

How the results depend on the processing

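For heavy against input, named genes kept direction and call in 3477 pairs of gene and setting, and in 24 others lost the call with the same direction. Most of these genes were chosen for large changes or small adjusted p in the same libraries, so the choice largely fixed this agreement. Leaving out 1 lysate gave 6876 to 7542 calls in place of 8007, 3359 to 3570 rises and 3517 to 3972 falls. The KO lysates alone gave 5018 calls (2481 rises, 2537 falls), and total counts 2400 rises.

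Without the lysate block (no pairing), heavy against input gave 3600 rises and 3946 falls, and the gain after HHT against vehicle 1402 rises and 1899 falls in place of 2197 and 2424. Limma on rescaled TPM gave 4450 rises and 1362 falls there with a pseudocount of 1, and 4478 and 1351 with 0.1. Heavy against medium by total counts gave 2172 and 5402.

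For KO minus WT, limma called 1 gene with either pseudocount, the fit of all 18 libraries without the block 1, and leaving out 1 lysate 0 to 5. Lrch4 was that gene each time, and without a KO lysate it was joined by Pcdha6, Pcdha7-g, LOC100861615, Gm7367 and Rsc1a1, named after their values were seen. A replicate block that pairs WT and KO by number gave 381 calls. The labels do not say that these numbers pair the samples, although the ratio's difference between replicates 1 and 2 correlated at 0.294 between WT and KO over genes, as a hint from the data. That fit has 1 residual degree of freedom, so its calls rest mostly on spread shared over genes. Fxr1 went from 0.05 with 1 WT or KO lysate left out to between -0.15 and 0.26, and Setd2 from 0.07 to between -0.30 and 0.44. These fell below 0 without WT 1 (-0.15 and -0.12) and without KO 2 (-0.04 and -0.30). Fmr1 in HHT minus vehicle went from -0.33 to 0.09 and 0.13 by limma. Fxr1 and Setd2 were not called in KO minus WT, nor Fmr1 in HHT minus vehicle, and the causes were not tested.

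List medians of heavy against input moved by more than the spread between lysates in 60 cases and by less in 766. Besides those given with the lists, Fmr1 with its partners went from -0.13 to 0.03 in the KO lysates alone. In heavy libraries Bc1 and Ly6c1 are at few counts, which limits their values.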
